A study of Mus musculus with 10 samples.

Results

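Interferons are secreted proteins that switch on an antiviral programme in the cells that sense them. Type I interferons bind the receptor Ifnar1-Ifnar2 and act through a complex that holds Stat2 and Irf9 on the interferon-stimulated response element (ISRE), whereas interferon gamma, made mainly by T and NK cells, binds Ifngr1-Ifngr2 and acts on the gamma-activated site (GAS). In skin both programmes are known from viral infection and inflammatory disease, and many genes answer to both signals. The 32 interferon-stimulated genes described here were taken by symbol from the 55487 gene identifiers of each library: 27 are grouped as type I targets and 5 (Irf1, Gbp2, Gbp3, Cxcl9 and Cxcl10) as interferon gamma targets. All 32 symbols matched exactly 1 identifier.

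The samples were skin of 10 mice, 1 RNA-seq library per mouse, 5 wild type (WT) and 5 whose genotype field reads "5 Hamp1-KI ker" (KI below), in a study of hepcidin overexpression in skin. Hepcidin, the product of Hamp, is a peptide hormone that limits how much iron cells release. The labels leave "ker" and the leading 5 unexplained, and the driver of the transgene, strain, age, sex and skin site could not be taken from them (not given in the sources used here). Titles carry the prefix EAS37 (3 WT and 2 KI mice) or EAS42 (2 WT and 3 KI mice), without a meaning in the labels. The libraries held between 18.96 and 26.43 M expected counts, with levels given below as CPM, counts scaled to the same total in each library. Hamp ranged from 1.86 to 3.33 CPM in WT and from 85.6 to 169 CPM in KI (5.47 ± 0.26 SE on the log2 scale, edgeR adjusted p = 3.78e-06), so every library matched its label. The keratinocyte keratins Krt5, Krt14, Krt1 and Krt10 had WT means of 5934, 3181, 843 and 2775 CPM, so epidermis was present in the labelled skin.

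The promoter stretches that carry the 2 motifs are shown first, because ISRE and GAS are the elements through which the signals act. The RefSeq table of promoters (GRCm38.p6, 250 bases before to 50 bases after each start) held 23 of the 32 genes, among them Oas3 but neither Mx1 nor Usp18. The ISRE core was searched as GAAANNGAAA on both strands and the GAS as TTCNNNGAA, which reads the same on both strands. In the sequences below, given 5′ to 3′ on the gene's strand, capitals mark the matches, and TTTC pairs are ISRE cores read from the other strand. Oas3 lies at chr5:120777710-120777749 (minus strand), Oas1a at chr5:120907515-120907560 (minus), Isg15 at chr4:156200860-156200911 (minus), Ifit1 at chr19:34640770-34640828 (plus), Gbp2 at chr3:142620589-142620628 (plus) and Irf1 at chr11:53769909-53769947 (plus).
Oas3: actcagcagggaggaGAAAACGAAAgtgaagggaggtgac
Oas1a: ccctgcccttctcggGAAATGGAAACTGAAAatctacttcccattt
Isg15: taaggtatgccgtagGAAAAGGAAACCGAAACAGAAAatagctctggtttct
Ifit1: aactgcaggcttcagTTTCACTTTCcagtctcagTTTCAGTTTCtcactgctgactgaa
Gbp2: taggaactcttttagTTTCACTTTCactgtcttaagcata
Irf1: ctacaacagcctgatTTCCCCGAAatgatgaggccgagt

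Oas3 is shown because it changed, Oas1a as its relative that narrowly missed the threshold, and Isg15 and Ifit1 as classical ISRE genes that did not pass. Gbp2 and Irf1 show an ISRE core and a GAS in 2 of the interferon gamma targets. Oas3 held 1 ISRE core, at position -75 from its start, while Isg15 held 3 overlapping cores between -78 and -66 and Ifit1 held 2, at -104 and -85. An ISRE core was present in 12 of the 23 genes (52.2%), against 3.99% of the 27025 genes and 3.44% of the 32851 promoters in the table. The 12 were Ifih1, Stat2, Ifit1, Ifit3, Oas1a, Oas3, Rsad2, Bst2, Isg15, Gbp2, Gbp3 and Cxcl10, so the core was found in 9 of 18 type I targets and in 3 of 5 interferon gamma targets. A GAS was found in 6 of the 23 genes (Ifit2, Oas1a, Isg20, Bst2, Ifi35 and Irf1), against 9.55% of all genes and 8.3% of all promoters in the table. Of the 12 genes with an ISRE core, 1 (Oas3) passed the test between genotypes, and none of the 6 with a GAS did. Over all members tested 9.68% passed, and over all genes tested 30.9%. A link between motif and change was not tested. A match is a run of letters and not a shown binding site.

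Few of the interferon-stimulated genes changed in KI skin. Of the 32, 31 were expressed enough to be tested, and the exception, Oasl1, an oligoadenylate synthetase-like protein, had 61 counts over the WT libraries and 70 over the KI libraries. The antiviral GTPase gene Mx1 and the oligoadenylate synthetase gene Oas3 rose, the deISGylase gene Usp18 fell, and 28 did not pass (edgeR quasi-likelihood test, Benjamini-Hochberg adjusted over all genes, threshold 0.05). The 3 calls are 9.68% of the members tested, whereas 30.9% of the 17321 genes tested passed in either direction, 15.6% as higher and 15.3% as lower in KI. Of genes with mean levels inside the members' range, 30.6% passed. The median log2 fold change was 0.08 over the members and -0.01 over all genes, and the median absolute value was 0.18 and 0.30. The members were also measured with more spread, with a median SE of 0.27 against 0.15 over all genes. Over the genes with mean levels inside the members' range it was 0.19.

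Missing the threshold does not show equal levels, so the width of each interval matters. Of the 28 members that did not pass, 21 (75%) had a 95% interval of the log2 fold change inside -1 to 1, a share close to the 74.9% of all genes that did not pass. The other 7 were Zbp1, Ifit1, Ifit2, Oas1a, Oasl2, Rsad2 and Cxcl9, for which a doubling or halving was within the interval. In 3 members, Mx1, Oas3 and Oas1a, every KI library lay above every WT library, and in none did every KI library lie below. Such separation in either direction was seen in 20.3% of all genes tested.

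**Figure D1:**
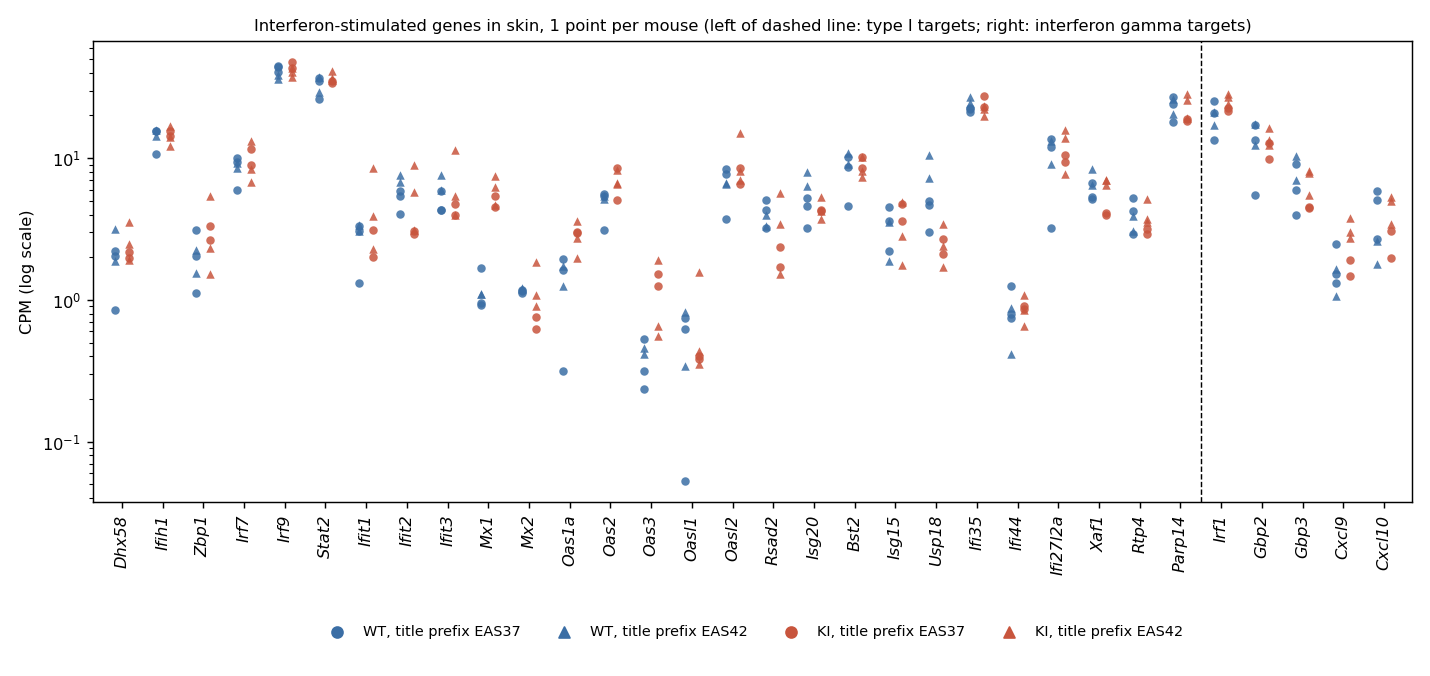
CPM of each interferon-stimulated gene on a log axis, with 1 point per mouse (WT blue, KI red; circles EAS37, triangles EAS42) and the interferon gamma targets right of the dashed line. The points of both genotypes overlap for all genes but Mx1, Oas3 and Oas1a; CPM is not divided by gene length, so heights should be compared within a gene.

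**Figure D2:**
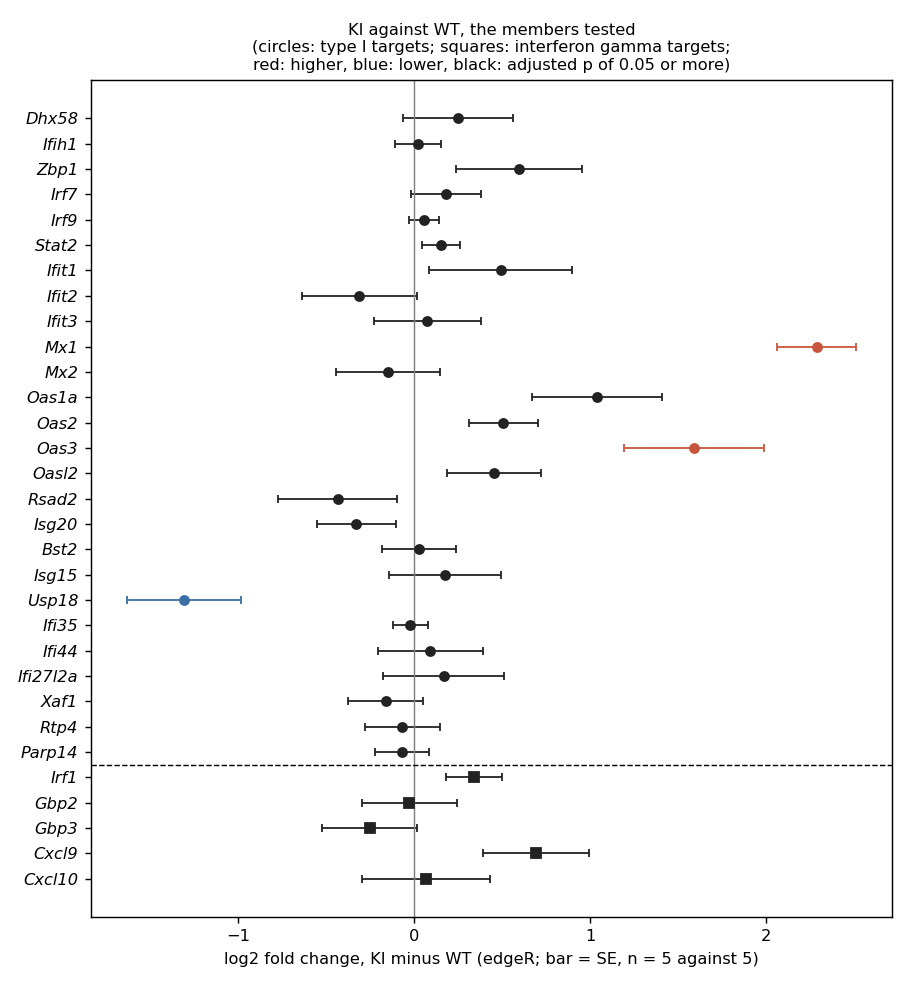
Log2 fold change of KI over WT for the 31 members tested, with bars of 1 SE (n = 5 against 5), circles for type I and squares for interferon gamma targets. Mx1 at 2.29 and Oas3 at 1.59 lie to the right, Usp18 at -1.31 to the left, and the other 28, in black, did not pass.

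Mx1 encodes a dynamin-like GTPase that can block influenza and related viruses. Whether these mice, of unstated strain, make a working protein from it is not known. Among the members, Mx1 showed the clearest change. Its level was 0.927, 0.953, 1.67, 1.1 and 1.1 CPM in WT 1 to WT 5 and 4.54, 5.38, 6.23, 7.45 and 4.66 CPM in KI 1 to KI 5. The lowest KI library thus stood well above the highest WT library. Mx1 rose by 2.29 ± 0.22 on the log2 scale (SE, edgeR adjusted p = 0.000182), by 2.05 within EAS37 (adjusted p = 0.00107) and by 2.47 within EAS42 (adjusted p = 0.00272). Mx1 lies at chr16:97447035-97462907 on the minus strand (GRCm38), overlaps no other annotated gene, and had no fractional count in any library. Leaving out each library in turn gave 2.18 to 2.46.

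Mx2, its paralog, lies at chr16:97535308-97560900 (plus strand), is listed as a polymorphic pseudogene in GENCODE M21 and did not pass. Mx2 stood at 1.15, 1.11, 1.17, 1.21 and 1.19 CPM in WT and at 0.757, 0.619, 1.09, 1.86 and 0.912 CPM in KI. The WT libraries were nearly equal, and the KI libraries fell on both sides of them (log2 fold change -0.15 ± 0.30, edgeR adjusted p = 0.732). The gene between the pair, Fam3b, which encodes a cytokine-like secreted protein and is no interferon-stimulated gene of this list, was looked at after the values were seen. Fam3b rose from 1.31 ± 0.789 to 6.67 ± 1.61 CPM (SD, n = 5; log2 fold change 2.33 ± 0.37, adjusted p = 0.00193), with all KI libraries above all WT libraries. Bace2, on the other side of Mx1, stood at 17.1 ± 2.09 and 16.8 ± 3.28 CPM (-0.03 ± 0.14, adjusted p = 0.902).

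**Figure D3:**
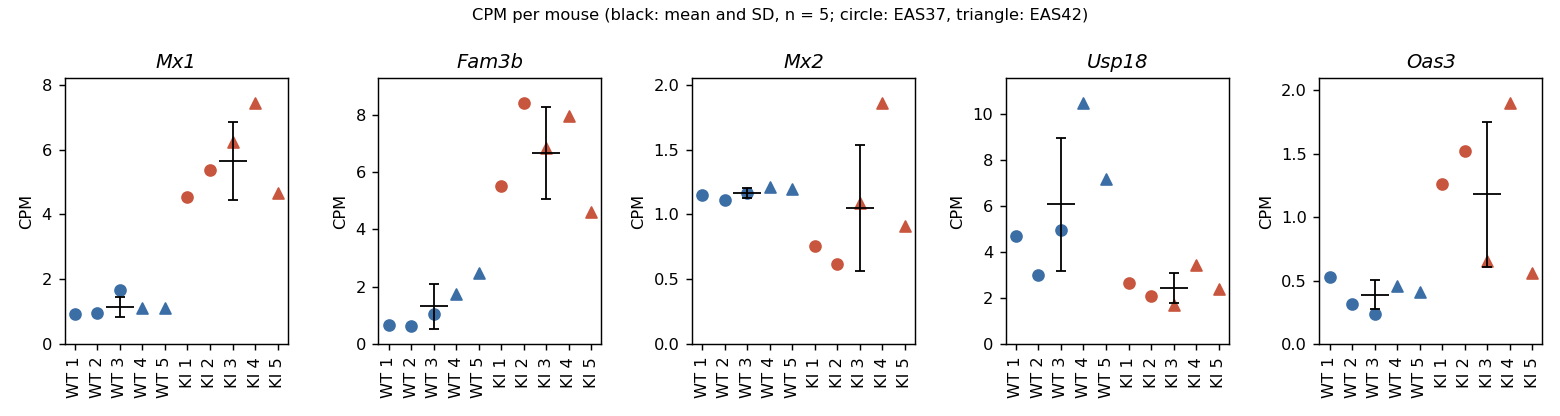
CPM per mouse, each panel on its own linear axis from 0, for Mx1, its neighbours Fam3b and Mx2, and for Usp18 and Oas3 (black: mean and SD, n = 5). Mx1 and Fam3b are higher in all 5 KI mice, Mx2 is not, and the Usp18 values of KI lie at or below 3.43 CPM.

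Oas3 encodes one of the oligoadenylate synthetases, which sense double-stranded RNA and activate RNase L. It was scarce, with 45 counts over all WT and 128 over all KI libraries. Oas3 stood at 0.530, 0.318, 0.233, 0.455 and 0.413 CPM in WT and at 1.26, 1.52, 0.654, 1.90 and 0.557 CPM in KI. The groups did not overlap, but KI 5 and KI 3 lay close to the WT range. Oas3 rose by 1.59 ± 0.40 on the log2 scale (edgeR adjusted p = 0.0136), with 1.94 within EAS37 (adjusted p = 0.0267) and 1.26 within EAS42 (adjusted p = 0.187). The call was lost without WT 2 and KI 4 together (1.29 ± 0.44, adjusted p = 0.0632), and with a minimum of 50 counts the gene was not tested.

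Of the other synthetase genes of the same cluster on chromosome 5 that were looked at and tested, none passed. Oas1a stood at 1.63, 0.318, 1.95, 1.25 and 1.74 CPM in WT and at 2.98, 3.0, 1.96, 3.6 and 2.74 CPM in KI, so that the groups were apart only by the gap between WT 3 and KI 3. Its log2 fold change was 1.04 ± 0.37 (edgeR adjusted p = 0.0522), and Oas2 gave 0.51 ± 0.20 (adjusted p = 0.0703). Oas1a, whose counts were fractional in 9 libraries, as for a gene that shares reads with close copies, passed by DESeq2 (adjusted p = 0.0145) and limma-voom (adjusted p = 0.0400), and also without WT 2 (adjusted p = 0.0275) or KI 3 (adjusted p = 0.0467). Oas2 passed by DESeq2 (adjusted p = 0.0348) and without KI 1 (adjusted p = 0.0481). Of the other protein-coding genes within 100 kb of Oas3, none passed among those tested (Oas1c, Oas1e, Oas1f, Oas1g, Rasal1 and Dtx1), with log2 fold changes from -0.15 for Oas1c to 1.11 for Oas1g (adjusted p = 0.186), and Oas1b, annotated as a polymorphic pseudogene, did not pass (0.14, adjusted p = 0.645).

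Usp18 encodes the protease that removes Isg15 from proteins and also dampens signalling at Ifnar2, and it was the 1 member that fell. Usp18 stood at 4.68, 3.02, 4.98, 10.5 and 7.20 CPM in WT and at 2.67, 2.09, 1.70, 3.43 and 2.38 CPM in KI. The highest KI library, KI 4, exceeded the lowest WT library, WT 2, and the 2 highest WT values were both from EAS42. Usp18 fell by 1.31 on the log2 scale (SE 0.32, edgeR adjusted p = 0.0127), with -0.83 within EAS37 (adjusted p = 0.0888) and -1.82 within EAS42 (adjusted p = 0.00765), a difference of -0.99 ± 0.48 that did not pass (adjusted p = 0.314). Fitted on EAS37 alone, the call was lost (-0.81, adjusted p = 0.0992), and Gm44148 overlaps Usp18 (chr6:121245906-121270917, plus strand) on the opposite strand, with the strand setting of the counting unknown. Isg15, the ubiquitin-like protein that Usp18 removes, ranged from 1.88 to 4.55 CPM in WT and from 1.77 to 4.91 CPM in KI (0.18 ± 0.32, adjusted p = 0.701). Of the neighbours within 100 kb, looked at after the values were seen, Pex26 rose (0.35, adjusted p = 0.00736), Slc6a13 fell (-1.29, adjusted p = 0.0175) and Tuba8 did not pass (-0.03, adjusted p = 0.884).

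The remaining antiviral effectors did not pass in either direction. Ifit1, Ifit2 and Ifit3, which bind foreign RNA, had log2 fold changes of 0.49 ± 0.41, -0.31 ± 0.33 and 0.08 ± 0.30, and the Ifit3 counts were fractional in 10 libraries. Rsad2 (viperin, which makes a chain-terminating nucleotide) was at -0.43 ± 0.34 and the exonuclease gene Isg20 at -0.33 ± 0.22. Bst2 (tetherin, which holds budding virions) was at 0.03 ± 0.21 and Oasl2 at 0.45 ± 0.27. One mouse, KI 4, held the highest KI value of Ifit1 (8.59 CPM), Ifit2 (8.93 CPM), Ifit3 (11.4 CPM), Oasl2 (15.1 CPM) and Rsad2 (5.67 CPM).

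The cytosolic RNA and DNA sensors and the transcription factors of the type I pathway did not pass either. Ifih1 (MDA5), Dhx58 (LGP2) and Zbp1 had log2 fold changes of 0.02 ± 0.13, 0.25 ± 0.31 and 0.60 ± 0.36. Irf9 and Stat2, which act together at the ISRE, were at 0.06 ± 0.09 and 0.15 ± 0.11, with 95% intervals of -0.13 to 0.24 and -0.08 to 0.39. Irf7, which amplifies interferon production, was at 0.18 ± 0.20. All 6 estimates were above 0, as were 8511 of the 17321 genes tested. Irf9 overlaps Rnf31 on its own strand and Irf7 overlaps Phrf1 on the other.

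Of 6 further type I targets none passed, with log2 fold changes from -0.16 (Xaf1, a proapoptotic factor) to 0.17 (Ifi27l2a), and with Rtp4 at -0.07, Parp14 (an ADP-ribosyltransferase) at -0.07, Ifi44 at 0.09 and Ifi35 at -0.02. Per length, in the deposited TPM values (transcript shares corrected for length), the most abundant type I members were Ifi27l2a, Ifi35 and Irf9. Ifi27l2a, a small mitochondrial and nuclear membrane protein, stood at 47.1 ± 20.2 TPM in WT and 49.4 ± 16.1 TPM in KI (SD, n = 5). Its libraries were at 13.6, 3.23, 11.9, 9.02 and 13.1 CPM in WT and at 10.5, 9.33, 13.9, 15.8 and 7.70 CPM in KI, so WT 2 alone lay far below the others.

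Ifi35 and Irf9 were steady from mouse to mouse. Ifi35 stood at 22.3, 21.3, 22.6, 26.9 and 24.4 CPM in WT and at 27.6, 23.0, 19.8, 23.4 and 22.04 CPM in KI. Irf9 stood at 44.4, 40.9, 44.0, 38.8 and 35.95 CPM in WT and at 43.4, 47.4, 40.6, 37.4 and 43.5 CPM in KI. Both genes overlapped throughout, at 30.5 ± 2.32 and 28.0 ± 1.5 TPM for Ifi35 and at 23.8 ± 2.07 and 23.8 ± 2.15 TPM for Irf9. At the other end of the scale, Oas3, at 0.142 ± 0.0563 TPM in WT and 0.390 ± 0.241 TPM in KI, was the least abundant member per length.

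None of the 5 interferon gamma targets passed the test. Irf1, a transcription factor of the early interferon gamma response, was the most abundant of them per length (14.3 ± 3.6 TPM in WT and 16.9 ± 3.01 TPM in KI). It stood at 20.8, 13.3, 25.4, 21.2 and 17.1 CPM in WT and at 22.7, 21.6, 28.5, 24.1 and 27.0 CPM in KI. All 5 KI values were above the WT median of 20.8, and the groups overlapped (log2 fold change 0.34 ± 0.16, edgeR adjusted p = 0.123, 95% interval -0.01 to 0.69). Its counts were fractional in 8 libraries, and Gm17334 overlaps it on the opposite strand.

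Gbp2 and Gbp3 encode guanylate-binding proteins, GTPases that attack the vacuoles of intracellular pathogens. Gbp2 stood at 13.4, 5.50, 17.2, 17.4 and 12.5 CPM in WT and at 9.79, 12.8, 16.4, 13.4 and 12.4 CPM in KI. Gbp3 stood at 6.0, 3.97, 9.10, 10.3 and 6.97 CPM in WT and at 4.54, 4.47, 8.11, 7.91 and 5.47 CPM in KI. In both genes the KI values lay inside the WT range. The log2 fold changes were -0.03 ± 0.27 (edgeR adjusted p = 0.949) and -0.25 ± 0.27 (adjusted p = 0.503).

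Cxcl9 and Cxcl10 encode chemokines that draw Cxcr3-bearing T and NK cells. Cxcl9 stood at 2.47, 1.32, 1.52, 1.06 and 1.65 CPM in WT and at 1.92, 1.48, 3.01, 3.81 and 2.74 CPM in KI, and the 3 KI mice of EAS42 lay above every WT mouse. Cxcl10 stood at 5.03, 2.70, 5.88, 1.78 and 2.61 CPM in WT and at 1.97, 3.05, 5.36, 4.99 and 3.45 CPM in KI, with high and low values in both groups. Over all libraries neither passed (Cxcl9 0.69 ± 0.30, edgeR adjusted p = 0.104; Cxcl10 0.07 ± 0.36, adjusted p = 0.908).

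Within the title prefixes the chemokines were less even. Cxcl9 was at -0.07 within EAS37 (edgeR adjusted p = 0.904) and at 1.24 within EAS42 (adjusted p = 0.0467), and Cxcl10 was at -0.86 (adjusted p = 0.102) and at 1.07 (adjusted p = 0.0856). The difference between prefixes was 1.30 ± 0.51 for Cxcl9 (adjusted p = 0.224) and 1.93 ± 0.54 for Cxcl10 (adjusted p = 0.107), and neither passed. No member's difference between prefixes passed, where 0.866% of all genes did. Within EAS37, 2 members were called (Mx1 and Oas3), against 35.8% of all genes, and within EAS42, 3 (Mx1, Usp18 and Cxcl9), against 15.1%. These calls are from the interaction model. Fitted on EAS42 libraries alone, Mx1 and Usp18 passed and Cxcl9 did not, where 13.9% of all genes passed.

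Type I and interferon gamma targets had similar medians, and few or none of either class passed. Of 26 type I targets tested 3 passed (11.5%) and of 5 interferon gamma targets 0. At an unadjusted p under 0.05 the counts were 5 and 1 (Cxcl9), while 43.3% of all genes tested reached it, and DESeq2 and limma-voom called no interferon gamma target either. The median log2 fold change was 0.08 for type I targets and 0.07 for interferon gamma targets. Within EAS37 these medians were 0.08 and -0.10 and within EAS42 0.11 and 0.47. The mean log2 CPM over the 26 type I targets was 2.27 ± 0.30 in WT and 2.46 ± 0.29 in KI (SD, n = 5), and over the 5 interferon gamma targets it was 2.63 ± 0.38 and 2.82 ± 0.35, a difference of 0.19 for each class and smaller than the SD between mice. The gap between the classes within a mouse was 0.36 ± 0.18 in WT and 0.37 ± 0.33 in KI.

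For the class levels, the spread between mice was larger than the difference between genotypes. For type I targets the mean log2 level was 2.38, 1.73, 2.46, 2.41 and 2.37 in WT 1 to WT 5 and 2.38, 2.33, 2.39, 2.96 and 2.21 in KI 1 to KI 5. WT 2 stood low and KI 4 high, and the other 8 mice lay between 2.21 and 2.46. WT 2 was the lowest WT library in 22 of the 31 members (71%), against 28.2% of all genes, and the highest in 0, while KI 4 was the highest KI library in 21 (67.7%), against 13.6% of all genes. For interferon gamma targets the level was 2.89, 2.05, 3.05, 2.61 and 2.56 in WT and 2.41, 2.52, 3.2, 3.13 and 2.84 in KI, where WT 2 was again lowest but KI 3 stood beside KI 4. Without WT 2 and KI 4 the class medians were -0.12 (type I) and -0.14 (interferon gamma), and Mx1 and Usp18 still passed.

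**Figure D4:**
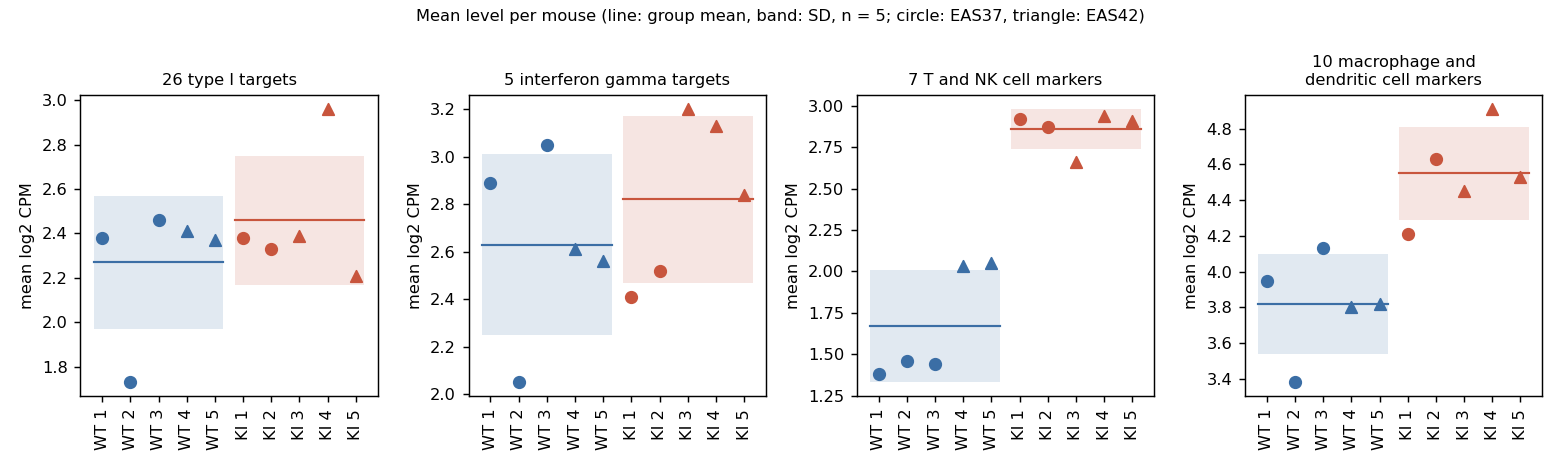
Mean log2 CPM per mouse of the 26 type I targets, the 5 interferon gamma targets, 7 T and NK cell markers and 10 macrophage and dendritic cell markers (line: group mean, band: SD, n = 5), each panel with its own axis that does not start at 0. The 2 interferon panels overlap between genotypes, with WT 2 lowest and KI 4 at 2.96 for type I, whereas the KI mice lie above the WT mice in both marker panels.

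Markers of immune cells rose in KI skin beside these values. Of 11 T and NK cell markers 7 were tested and 5 rose, with a summed level of 23.0 to 41.9 CPM in WT and 58.3 to 77.5 CPM in KI. Of 10 macrophage and dendritic cell markers 5 rose (201 to 323 CPM in WT and 323 to 521 CPM in KI), and of 7 neutrophil markers 5 were tested and all 5 rose (7.62 to 10.1 and 77.6 to 162 CPM), with Ly6g at 0 counts in every library. Over all genes tested, 15.6% were called higher in KI. None of 4 plasmacytoid dendritic cell markers tested passed (218 to 260 and 118 to 228 CPM). In bulk skin, more cells of a type and more RNA per cell cannot be told apart, and the cells that made a marker's RNA are not known. With the T and NK marker level as a covariate no member passed, Mx1 being at 2.01 ± 0.70 (edgeR adjusted p = 0.116), Oas3 at 1.71 (adjusted p = 0.425) and Usp18 at -2.94 (adjusted p = 0.0764). With the macrophage and dendritic level, and likewise with the skeletal muscle level, Mx1 passed and neither Oas3 (1.0 and 0.77, adjusted p = 0.456 in both) nor Usp18 (-1.85 and -1.27, adjusted p = 0.119 and 0.241) did. The mean log2 levels of the genotypes did not overlap for the 7 T and NK markers tested (1.38 to 2.05 in WT and 2.66 to 2.94 in KI). They did not overlap for the 10 macrophage and dendritic markers either (3.38 to 4.13 and 4.21 to 4.91). The T and NK covariate averaged all 11 listed markers, whose summed level above also did not overlap. Hence these levels and genotype cannot be told apart by such fits.

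Transcripts of the 11 interferon genes looked at were at or near 0, and other interferon genes were not looked at. Ifnb1, Ifna1, Ifna2, Ifna4, Ifna5, Ifne, Ifnl2 and Ifnl3 had 0 counts in all 10 libraries, which allows up to 0.0135 CPM each over all libraries (3 counts, counting error only). Ifnk, the keratinocyte interferon, had 2 counts in WT and 1 in KI, and Ifnz had 5.33 and 11.35 estimated counts. Ifng had 8 counts in WT, in 5 of 5 libraries, and 2 in KI, in 2 of 5. None of the 11 ligands had enough counts for a test, so none was tested.

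The receptors and kinases that carry the signal mostly did not pass. Ifnar1 stood at 42.1 ± 3.70 and 41.04 ± 1.18 CPM (a log2 difference of -0.04, edgeR adjusted p = 0.713) and Ifnar2 at 19.6 ± 1.5 and 20.5 ± 2.08 CPM (0.07, adjusted p = 0.621). Ifngr1 was at -0.40 ± 0.17 (adjusted p = 0.0941) and Ifngr2 at 0.16 ± 0.10 (adjusted p = 0.220), and both passed without KI 5 (-0.56, adjusted p = 0.00922, and 0.26, adjusted p = 0.0250). Of 9 genes in this list 2 passed, both higher in KI (22.2%, against 30.9% of all genes tested in either direction). They were Il10rb (0.59, adjusted p = 0.00247), a chain shared by the receptors of interleukin 10 and interferon lambda, and its partner Ifnlr1 (0.35, adjusted p = 0.00682).

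Among 5 interferon regulatory factors outside the 32 genes, 2 rose and 2 fell (80%, against 30.9% of all genes tested). Irf3 did not pass (0.02, edgeR adjusted p = 0.787). Irf8 (0.77, adjusted p = 0.0167) and Irf5 (0.42, adjusted p = 0.0310), factors of myeloid cells, rose beside the macrophage and dendritic markers above. With that marker level as a covariate Irf8 was at -0.024 (edgeR adjusted p = 0.967) and Irf5 at 0.09 (adjusted p = 0.835). The marker level did not overlap between genotypes, so its part and that of genotype cannot be told apart. Irf2 (-0.43, adjusted p = 0.00620), a repressor at ISRE sites, and the lymphoid and dendritic factor Irf4 (-0.82, adjusted p = 0.0119) fell. Of 5 feedback inhibitors 2 rose (40%, against the same 30.9%), Socs3 (0.63, adjusted p = 0.0234) and the phosphatase gene Ptpn2 (0.29, adjusted p = 0.0359). Socs1 (0.38, adjusted p = 0.166) and Pias1 (0.05, adjusted p = 0.615) did not pass. The calls of Irf5, Socs3 and Ptpn2 were near the threshold: Irf5 was lost without WT 2, WT 4, WT 5, KI 2, KI 3 or KI 4 (adjusted p up to 0.0742), Socs3 without WT 1, WT 3, KI 1 or KI 2 (up to 0.0649) and Ptpn2 without any 1 of the WT libraries, KI 1 or KI 2 (up to 0.0866). Socs3 was at 1.1 in EAS37 mice (adjusted p = 0.000545) and 0.15 in EAS42 mice (adjusted p = 0.540), a difference of -0.95 ± 0.21 (adjusted p = 0.0661). Ptpn2 was at 0.49 (adjusted p = 0.00563) and 0.14 (adjusted p = 0.421), a difference of -0.36 ± 0.15 (adjusted p = 0.249).

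Nucleic acid sensing had 4 genes up and 1 down of 16 tested (31.2%, against 30.9% of all genes tested). The adaptor genes Myd88 (0.57, edgeR adjusted p = 0.00557) and Tmem173 (STING; 0.62, adjusted p = 0.0239), the kinase gene Tbk1 (0.32, adjusted p = 0.00913) and the RNA-dependent kinase gene Eif2ak2 (0.28, adjusted p = 0.0381) rose. Ikbke, the Tbk1 relative, fell (-0.63, adjusted p = 0.0154). Tmem173 was at 0.87 in EAS37 mice (adjusted p = 0.0184) and 0.39 in EAS42 mice (adjusted p = 0.312). Tmem173 was lost without WT 1, WT 5, KI 1, KI 2 or KI 4 (adjusted p up to 0.0591), and Eif2ak2 without any 1 library but WT 3 or KI 5 (up to 0.0846).

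Targets outside the 32 moved in both directions. Of 31 other type I targets tested, 4 rose and 2 fell (19.4%, against the same 30.9%). The risers were Ly6e (0.74, edgeR adjusted p = 0.000628), the virus entry inhibitors Ifitm3 (0.80, adjusted p = 0.00154) and Ifitm2 (0.42, adjusted p = 0.0126), and Slfn8 (1.17, adjusted p = 0.00284), and Slfn5 (-0.52, adjusted p = 0.0140) and Tor3a (-0.28, adjusted p = 0.0205) fell. Ly6e and Ifitm3 were abundant, at 145 ± 14.4 and 241 ± 23.7 CPM and at 106 ± 14.8 and 185 ± 24.7 CPM in WT and KI. The list's median was -0.08, with 13 estimates above and 18 below 0. Tor3a was lost without WT 3 or KI 1 (adjusted p up to 0.0569).

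Of 21 other interferon gamma targets tested, 5 rose and 2 fell (33.3%, against 30.9% of all genes), with a list median of -0.18. Icam1, an adhesion molecule for leukocytes (0.72, edgeR adjusted p = 0.000994), Casp1, the inflammatory caspase (1.13, adjusted p = 0.0165), Gbp8 (1.58, adjusted p = 0.0123) and the class I transactivator gene Nlrc5 (0.45, adjusted p = 0.0159) rose, as did the class II transactivator gene Ciita (0.74, adjusted p = 0.0448). Serping1, a complement inhibitor (-0.59, adjusted p = 0.0246), and the GTPase gene Irgm2 (-0.60, adjusted p = 0.0488) fell. Gbp8 was at 0.51 in EAS37 mice (adjusted p = 0.362) and 2.45 in EAS42 mice (adjusted p = 0.00755), a difference of 1.94 ± 0.60 (adjusted p = 0.140). Nlrc5 was at 0.60 (adjusted p = 0.00542) and 0.25 (adjusted p = 0.227), and Serping1 at -0.91 (adjusted p = 0.00751) and -0.19 (adjusted p = 0.551). Casp1 passed in both in the interaction model, at 0.87 and 1.83 (adjusted p = 0.0237 and 0.00428). Fitted on EAS37 libraries alone, Casp1 did not pass (0.89, edgeR adjusted p = 0.0690). Ciita was lost without any 1 library but KI 1 (adjusted p up to 0.105), Irgm2 without WT 1, WT 3, WT 4, WT 5, KI 1, KI 2 or KI 4 (up to 0.106) and Serping1 without KI 1 or KI 2 (up to 0.0590). Of 11 genes of class I antigen processing 1 rose (9.09%, against 30.9% of all genes), H2-D1 (0.33, adjusted p = 0.0346). The H2-D1 call was lost without WT 1, WT 4, WT 5, KI 1, KI 2 or KI 4 (up to 0.0778). Psme2 (0.32, adjusted p = 0.0617), Psme1 (0.19, adjusted p = 0.0755) and Psmb10 (0.32, adjusted p = 0.108), parts of the immunoproteasome and its activator, did not pass, though Psme1 passed without WT 1 (adjusted p = 0.0288) and Psme2 without KI 2 (adjusted p = 0.0343), and both by DESeq2 (adjusted p = 0.0418 and 0.0422).

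Of the 27 pathway genes outside the 32 that passed, 8 also passed within each prefix in the interaction model. These were Il10rb, Myd88, Tbk1, Ifitm3, Ly6e, Slfn8, Icam1 and Casp1. Fitted on EAS37 libraries alone, Tbk1 and Casp1 did not pass (edgeR adjusted p = 0.0673 and 0.0690). Myd88 and Slfn8 did not pass when fitted on EAS42 libraries alone (edgeR adjusted p = 0.0556 and 0.0507). In the interaction model 13 passed within EAS37 only (Ifnlr1, Irf4, Socs3, Ptpn2, Tmem173, Ikbke, Ifitm2, Tor3a, Slfn5, Irgm2, Nlrc5, Serping1 and H2-D1). Within EAS42 only, 2 passed in that model (Irf2 and Gbp8), and 4 passed within neither prefix (Irf5, Irf8, Eif2ak2 and Ciita). Fitted on EAS37 libraries alone, Irf4, Ikbke, Tor3a, Slfn5 and H2-D1 did not pass (edgeR adjusted p from 0.0612 to 0.1). Irf2 did not pass when fitted on EAS42 libraries alone (edgeR adjusted p = 0.0562).

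**Figure D5:**
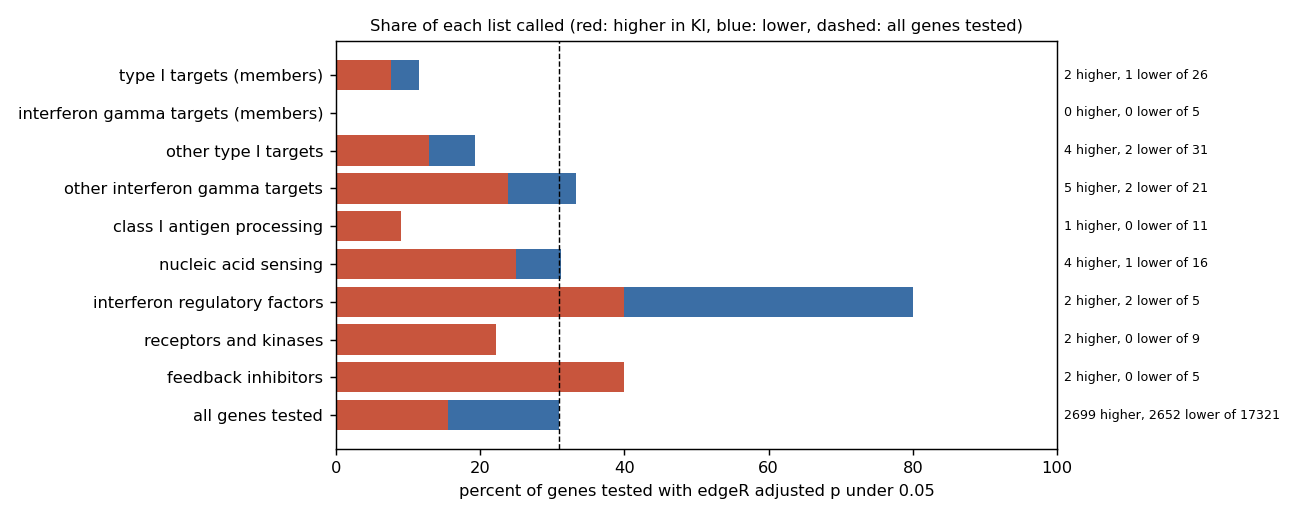
Percent of each gene list with an edgeR adjusted p under 0.05 (red: higher in KI, blue: lower), with the counts beside the bars and the dashed line at the 30.9% of all genes tested. The type I members reach 11.5% and the interferon gamma members 0, while the list of interferon regulatory factors, with 5 genes, reaches 80%.

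The genes whose level followed the interferon gamma targets most closely over the 10 libraries were 3110039I08Rik (Pearson r = 0.91), Gm16185 (0.91), Mlec (0.90), Capn7 (0.89) and Plppr2 (0.89), measured on log2 CPM against the mean of the 5 targets. This is a description of 10 libraries that share their depth scaling and, by 5, their genotype, and none of the 5 genes passed the test between genotypes.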

How the data were processed

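Libraries of trizol-extracted mouse skin RNA came from a stranded Illumina mRNA kit, per the labels' protocols. Per the submitters' processing notes, the tools were STAR 2.5.2b, DESeq2 1.14.1, Picard 2.8.1, FastQC and featureCounts and the build GRCm38, listed without role or order. The deposited tables have the columns of RSEM gene tables: expected counts (estimates that need not be whole, 10.4% to 12.2% fractional per library) and TPM, both computed by the authors, per the file headers. RSEM's version, annotation and strandedness are unknown (not given in the sources used here). Reads shared by paralogs are split by estimation, and fractional counts were found in 9 libraries for Oas1a and in 10 for Ifit3, Irf5 and H2-D1.

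Expected counts were rounded and genes named from GENCODE M21 (55141 of 55487 identifiers, the 346 others with 0.0507% of counts). Mitochondrial genes held 3.58% to 5.31% of counts. Genes were kept by filterByExpr (minimum count 10, minimum total 15), leaving 17321. Genotypes were compared in edgeR 4.0.16 with its quasi-likelihood test (R 4.3.3, robust, TMM), Benjamini-Hochberg adjusted over all genes, threshold 0.05. Prefix effects come from an interaction model. CPM use TMM library sizes, log2 CPM a prior count of 2, and 95% intervals are the log2 fold change with its SE times the t quantile. Each mouse is 1 replicate. Replicate numbers follow accession order and pair nothing. Classes and lists are described by counts and medians, with no test. TPM serve to compare genes.

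Members and lists were chosen with earlier results of these data known. Values per library are given for the interferon gamma members, the type I members that passed and the 3 type I members highest in TPM, and named pathway genes are the 4 with the smallest p per list plus Ifng, Ifnb1, Ifnk, Ifnar1, Ifnar2, Ifngr1 and Ifngr2, and 1 further gene of the rule is not reported here. Mx2, Oas1a, Oas2, Isg15, Eif2ak2, Slfn5, Tor3a, Ciita, Irgm2, Serping1 and neighbouring genes were chosen after their values were seen. Alternatives were DESeq2 size factors, upper quartile scaling, no filter, a stricter filter (minimum count 50), DESeq2 1.42.0, limma-voom (limma 3.58.1), prefix as a block, each prefix alone, muscle or T and NK marker level as a covariate, a shorter ISRE core and each library left out. The fits without WT 2 and KI 4 and with the macrophage and dendritic level were added later, with the data in view. Scripts were tested on simulated data. Marker lists of keratinocytes, fibroblasts, endothelium, adipocytes and skeletal muscle had 2 of 6 higher, 3 of 6 lower, 5 of 5 lower, 4 of 5 lower and 0 of 6 passed. All 6 muscle estimates were below 0 (median -1.43, 5 passed within EAS37), with a summed level of 16108 to 29423 CPM in WT and 1370 to 19634 CPM in KI.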

Additional observations from a re-analysis of the deposited data

Results flagged for a closer look

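In 5 cases the highest or lowest mouse of a genotype stood apart from the other 4 by more than Dixon's 95% limit for 5 values (0.71 of the range). WT 2 was far below the other WT mice for Ifit1 (1.32 CPM) and Oas2 (3.12 CPM), and KI 4 far above the other KI mice for Ifit3 (11.4 CPM) and Oasl2 (15.1 CPM). WT 3 was far above the other WT mice for Mx1 (1.67 CPM), still below every KI mouse. Chance gives about 1 such case in 20 groups, and 62 groups were looked at (31 members, each in WT and KI).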

How the results depend on the processing

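Mx1 and Usp18 kept their calls under both other scalings, both filters, DESeq2, limma-voom, the prefix block and every single left-out library, and Oas3 under the same settings but the stricter filter, where it was not tested. Leaving out single libraries gave 3821 to 5850 genes called (5351 with all), 2 to 3 members higher, 1 lower, 0 interferon gamma members, and class medians of 0.01 to 0.19 (type I) and -0.10 to 0.32 (interferon gamma). The number of members called higher, 2, became 4 by DESeq2 and 3 by limma-voom. It became 1 with the stricter filter, EAS42 alone, the muscle or macrophage covariate or without WT 2 and KI 4, and 0 with the T and NK covariate. The 1 lower member became 0 with EAS37 alone and with each of the 3 covariates. Genes called fell to 2488 with EAS42 alone, 449 with the muscle, 711 with the T and NK and 599 with the macrophage covariate. The interferon gamma median was 0.46 with EAS42 alone, and the macrophage covariate gave medians of -0.52 (type I) and -0.90 (interferon gamma). Irf8 turned to -0.24 with the T and NK and -0.024 with the macrophage covariate, and Ciita to -0.98 and -0.24. With the shorter core GAAANNGAA 14 of 23 promoters matched instead of 12. For members named singly, 280 of the alternative values kept their side of the threshold, 10 lost and 6 gained a call, and for the other genes named 720 kept it, 186 lost and 8 gained a call and 4 turned sign. The cause of these shifts was not tested. No paired analysis was possible because the labels give no replicate numbers that pair mice across genotypes. Low counts limit Oas3 and Oasl1 and leave the 11 interferon ligands untested.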
